A study of Arabidopsis thaliana with 10 samples.

Results

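The 10 genes described here encode WRKY transcription factors that have been studied at the meeting point of plant growth and defence, namely WRKY11, WRKY15, WRKY18, WRKY33, WRKY40, WRKY46, WRKY53, WRKY54, WRKY60 and WRKY70. They were chosen by name, with earlier results of these data known, so that their share of calls is no independent test. Each was read from the deposited table by its locus identifier, with the transcripts of a locus summed. All 10 were found among the 32753 loci of the table, and all 10 passed the filter on low values, as did 56 of the 62 other WRKY genes. The material was whole Arabidopsis thaliana seedlings, kept for 5 days in darkness on medium that held 2 µM of a compound named PPZ in every group. The line RiD-BRI1/BAK1, here RiD, was given 100 nM rapamycin, 100 nM brassinolide or a mock treatment. The wild-type accession Col-0 was given 100 nM rapamycin or a mock treatment. There were 2 libraries in each of the 5 groups, with the numbers 1 and 2. RiD takes its name from BRI1, the brassinosteroid receptor kinase, and BAK1, its co-receptor kinase. The sources used here do not give its construct, its promoter or the number of independent lines. Rapamycin is a bacterial macrolide that joins an FKBP protein to an FRB domain, and brassinolide is the most active brassinosteroid hormone.

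WRKY proteins are plant transcription factors that bind a DNA element called the W-box, whose core reads TTGAC, and they are sorted into groups by the number and build of their DNA-binding domains. Many are switched on within minutes of pathogen perception, downstream of mitogen-activated protein kinases, and then activate or repress defence genes, other WRKY genes and often their own genes. Some also act in brassinosteroid growth: WRKY46, WRKY54 and WRKY70 work with the brassinosteroid factor BES1 on growth and drought genes, and WRKY40 binds the brassinosteroid factor BZR1 at defence genes.

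Values are normalized counts, that is, counts scaled by the authors so that libraries of different depth can be compared. The libraries held 18.41 to 19.66 M reads where numbered 1 and 29.2 to 33.89 M where numbered 2, as estimated from the smallest steps in the values, so that 3 reads correspond to 2.18 to 4.18 normalized counts. BRI1 averaged 8547 to 10358 normalized counts over the RiD groups and 4273 to 4523 over the Col-0 groups, and BAK1 averaged 5012 to 5894 over the RiD groups and 1997 to 2002 over the Col-0 groups. The 4 markers of dark-grown cotyledons and hypocotyls summed to at least 42958 in every library. Most of this came from PORA and PORB, which averaged 21064 and 27883 in RiD rapamycin, against 1051 for HLS1 and 684 for LHCB1.2. Fewer cells of a type and less RNA per cell cannot be told apart in whole seedlings. The sources used here do not say if both libraries of a group were grown separately, and p-values therefore measure a spread that may be technical.

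Rapamycin in the RiD line raised most of these WRKY genes. On the scale of the value plus 1, WRKY60 rose 16.4-fold, WRKY46 11.3-fold, WRKY53 10.5-fold, WRKY70 7.72-fold and WRKY18 3.81-fold over RiD mock, and WRKY11 and WRKY15 rose by smaller factors. WRKY33, WRKY40 and WRKY54 did not pass the test. In all, 7 of 10 members were called higher and 0 lower at an adjusted p under 0.05 (limma, Benjamini-Hochberg over 23285 loci), where 22% of all tested loci were called, 12.3% higher and 9.72% lower. The balance over all loci depends on scaling: 2857 were called higher and 2263 lower as deposited, and 2473 higher and 3218 lower with libraries scaled to equal totals, where 6 members were called higher and 0 lower. The median log2 change was 1.52 over the 10 members and -0.03 over all tested loci. With the library number as a block, 8 members were called higher and 1 lower, where 48.2% of all loci were called, 24.1% higher and 24.1% lower.

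**Figure D1:**
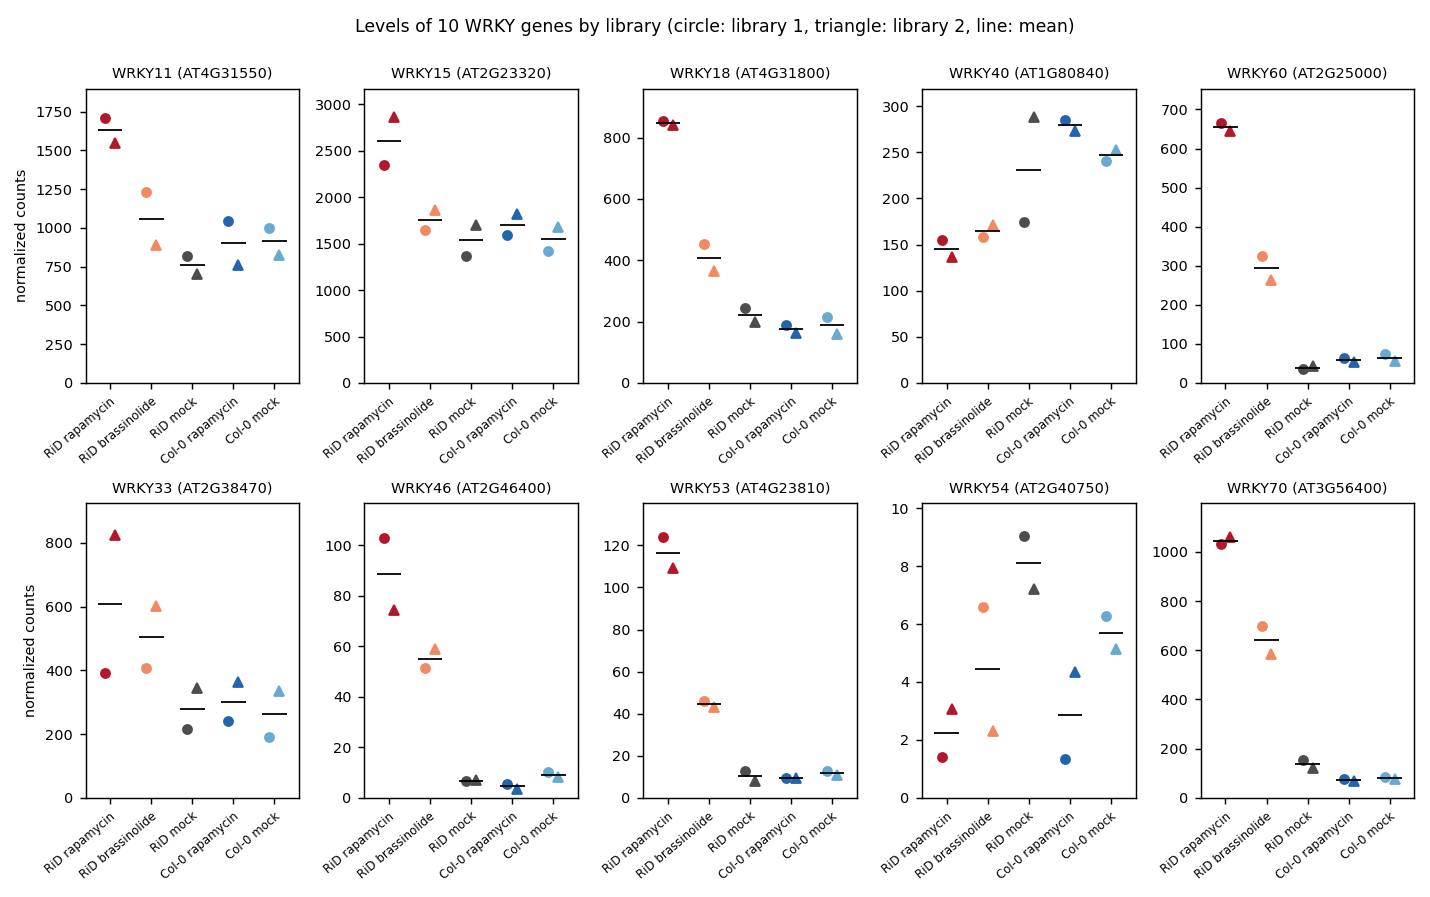
Normalized counts of the 10 WRKY genes (vertical axis, linear and starting at 0, scaled per gene) in the 5 groups, with a circle for library 1, a triangle for library 2 and a line at the mean of both. WRKY18, WRKY46, WRKY53, WRKY60 and WRKY70 were highest in both RiD rapamycin libraries, next in both RiD brassinolide libraries and lowest in the other groups, while WRKY40 and WRKY54 were not high in either treated RiD group.

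WRKY11 and WRKY15 belong to group IId, whose proteins bind calmodulin, and both genes are known as targets that BZR1 raises. WRKY11 (AT4G31550, chr4:15289788-15291934, minus strand, TAIR10.1) is a negative regulator of basal resistance. It had 1708 and 1550 normalized counts in the RiD rapamycin libraries, 1229 and 887 in RiD brassinolide, 818 and 700.3 in RiD mock, 1044 and 762 in Col-0 rapamycin, and 998 and 827 in Col-0 mock. Both RiD rapamycin libraries stood above the libraries of every other group, and both RiD brassinolide libraries above those of RiD mock. The log2 change under rapamycin in RiD was 1.10 (SE 0.22, adjusted p = 0.00976), and the adjusted p was 0.055 without RiD rapamycin library 1 and 0.0553 without RiD mock library 2.

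WRKY15 (AT2G23320, chr2:9924886-9926372, plus strand), a regulator of growth and of salt and osmotic stress responses, was the most abundant of the 10 in every group. It had 2347 and 2861 normalized counts in RiD rapamycin, 1651 and 1862 in RiD brassinolide, 1372 and 1702 in RiD mock, 1593 and 1817 in Col-0 rapamycin, and 1422 and 1681 in Col-0 mock. Only the RiD rapamycin libraries stood apart, and the other 4 groups overlapped one another. The log2 change of 0.76 (SE 0.18, adjusted p = 0.0203) was not called without RiD rapamycin library 2 (adjusted p = 0.123), without RiD mock library 1 (0.119), with libraries scaled to equal totals (0.0706) or with only the compared groups fitted (0.0958).

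WRKY18, WRKY40 and WRKY60 form group IIa. Their proteins pair with themselves and with one another, act largely as redundant repressors of basal defence, and also act in abscisic acid responses. The genes parted in the treated RiD seedlings: WRKY60 and WRKY18 rose, and WRKY40 did not. WRKY60 (AT2G25000, chr2:10629662-10631413, plus strand) had 666 and 645 normalized counts in RiD rapamycin, 325 and 264 in RiD brassinolide, 36.1 and 42.4 in RiD mock, 63.2 and 53.65 in Col-0 rapamycin, and 72.8 and 56.45 in Col-0 mock. The treated RiD groups lay far above the 3 remaining groups and did not overlap each other. The rise with rapamycin in RiD, 4.03 on the log2 scale (SE 0.21, adjusted p = 2.77e-05), was the largest of the 10 members.

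WRKY18 (AT4G31800, chr4:15382777-15385100, plus strand) had 854 and 839.6 normalized counts in RiD rapamycin, 452 and 364 in RiD brassinolide, 245 and 199.9 in RiD mock, 189.5 and 162 in Col-0 rapamycin, and 216 and 159.8 in Col-0 mock. The order of the RiD groups was that of WRKY60, from a higher level in RiD mock. The log2 change under rapamycin in RiD was 1.93 (SE 0.21, adjusted p = 0.000508). WRKY40 (AT1G80840, chr1:30383561-30385499, plus strand) had 154 and 137 normalized counts in RiD rapamycin, 158 and 171 in RiD brassinolide, 174 and 288 in RiD mock, 285 and 273 in Col-0 rapamycin, and 241 and 252 in Col-0 mock. Both treated RiD groups lay below every other library, although the RiD mock libraries were far apart. The log2 difference between RiD rapamycin and RiD mock was -0.62 (SE 0.23, adjusted p = 0.0989), and the adjusted p was 0.0128 with the library number as a block and 0.0211 without RiD mock library 1.

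The promoters of the 3 group IIa genes are shown because 2 of these close relatives rose and WRKY40 did not pass the test. Each is the 300 bases before the annotated gene start in the RefSeq annotation of TAIR10.1, on the strand of the gene, with any W-box core (TTGAC, or GTCAA for a core on the opposite strand) in capitals. The windows lie at chr2:10629362-10629661 for WRKY60, chr4:15382477-15382776 for WRKY18 and chr1:30383261-30383560 for WRKY40, all on the plus strand.
WRKY60: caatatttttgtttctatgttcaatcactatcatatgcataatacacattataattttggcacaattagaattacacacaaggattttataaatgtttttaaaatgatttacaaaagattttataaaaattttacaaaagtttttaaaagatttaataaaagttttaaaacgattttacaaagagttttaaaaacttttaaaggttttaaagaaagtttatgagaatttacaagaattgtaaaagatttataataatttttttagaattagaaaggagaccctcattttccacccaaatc
WRKY18: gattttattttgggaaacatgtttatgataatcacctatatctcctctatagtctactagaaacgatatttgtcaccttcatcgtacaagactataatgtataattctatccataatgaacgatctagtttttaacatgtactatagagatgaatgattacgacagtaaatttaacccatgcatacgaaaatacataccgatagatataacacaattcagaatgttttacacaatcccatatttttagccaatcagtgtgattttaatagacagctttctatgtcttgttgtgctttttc
WRKY40: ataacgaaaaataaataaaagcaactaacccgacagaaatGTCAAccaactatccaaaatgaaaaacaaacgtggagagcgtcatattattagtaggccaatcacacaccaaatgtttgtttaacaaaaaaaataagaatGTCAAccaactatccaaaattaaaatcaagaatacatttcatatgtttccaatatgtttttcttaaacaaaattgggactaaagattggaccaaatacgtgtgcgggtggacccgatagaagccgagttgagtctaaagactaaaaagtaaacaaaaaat
The WRKY40 window held 2 cores, 260 and 160 bases before the start, both on the opposite strand, and the WRKY60 and WRKY18 windows held none of these letters. WRKY40 also held CGTGTG, an element bound by BZR1, 63 bases before the start, which 7.64% of 27443 promoters of protein-coding genes held as CGTGTG or CGTGCG on either strand.

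WRKY33 (AT2G38470, chr2:16108235-16110766, plus strand), the group I factor that is phosphorylated by MPK3 and MPK6 and drives camalexin synthesis against fungi, had 392 and 824 normalized counts in RiD rapamycin, 408.5 and 603 in RiD brassinolide, 215.5 and 343 in RiD mock, 239.5 and 363 in Col-0 rapamycin, and 191 and 335 in Col-0 mock. In every group library 2 was the higher one, and both treated RiD groups lay above all other libraries. With rapamycin WRKY33 differed by 1.06 on the log2 scale (SE 0.44, 95% interval 0.04 to 2.08), which did not pass the test (adjusted p = 0.128), and the adjusted p was 1.27e-05 with the library number as a block. On the opposite strand the annotation holds AT2G08965, a long non-coding RNA, across 272 bases of WRKY33, which is not analysed here, and AT2G38480 across 26 bases, and AT2G38480 had 302 and 283 normalized counts in RiD rapamycin, 171 and 126.5 in RiD brassinolide and 86.4 and 57.5 in RiD mock. The kit was stranded per the labels, but the sources used here do not say how strand was used in counting. It is therefore not known if reads from the overlapping genes were counted for WRKY33, and their part in its values was not tested.

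Group III holds the 4 remaining members, and 3 of them rose together. WRKY70, which favours salicylate over jasmonate responses, WRKY46, which acts with it in salicylate defence and drought, and WRKY53, an early promoter of leaf senescence, were all at least 7-fold higher in RiD rapamycin than in RiD mock. WRKY54, the closest relative of WRKY70 and with it a repressor of senescence, was close to the detection limit. WRKY70 (AT3G56400, chr3:20908711-20910623, minus strand) had 1033 and 1059 normalized counts in RiD rapamycin, 698 and 586 in RiD brassinolide, 152 and 119 in RiD mock, 76.6 and 69.6 in Col-0 rapamycin, and 82.95 and 75.5 in Col-0 mock. The RiD rapamycin libraries agreed closely and lay above the RiD brassinolide ones, and the RiD mock libraries lay above all 4 Col-0 libraries. The log2 change under rapamycin in RiD was 2.95 (SE 0.18, adjusted p = 4.49e-05).

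WRKY46 (AT2G46400, chr2:19043411-19044955, minus strand) had 103 and 74.2 normalized counts in RiD rapamycin, 51.4 and 58.7 in RiD brassinolide, 6.45 and 7.20 in RiD mock, 5.38 and 3.63 in Col-0 rapamycin, and 10.04 and 8.06 in Col-0 mock. Outside the treated RiD groups it stood at a few reads per library. Its rise with rapamycin in RiD was 3.50 on the log2 scale (SE 0.33, adjusted p = 0.000275). WRKY53 (AT4G23810, chr4:12392370-12393982, minus strand) had 124 and 109 normalized counts in RiD rapamycin, 46.1 and 43.3 in RiD brassinolide, 12.9 and 8 in RiD mock, 9.41 and 9.44 in Col-0 rapamycin, and 12.5 and 11 in Col-0 mock. The RiD mock values overlapped those of both Col-0 groups, and the treated RiD groups were apart from these and from each other. Rapamycin in RiD gave a log2 change of 3.39 (SE 0.31, adjusted p = 0.000218). The gene 3xHMG-box2 (AT4G23800) lies on the opposite strand across 341 bases of WRKY53, with 230 and 191 normalized counts in RiD rapamycin, 459.9 and 449 in RiD brassinolide, and 315 and 304 in RiD mock. It was lower than in RiD mock in 1 treated RiD group and higher in the other, while WRKY53 was higher in both, and its part in the WRKY53 values was not tested.

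WRKY54 (AT2G40750, chr2:17000419-17002528, minus strand) had 1.39 and 3.06 normalized counts in RiD rapamycin, 6.59 and 2.32 in RiD brassinolide, 9.03 and 7.20 in RiD mock, 1.34 and 4.35 in Col-0 rapamycin, and 6.26 and 5.13 in Col-0 mock. The log2 difference between RiD rapamycin and RiD mock was -1.54 (SE 0.59, adjusted p = 0.102). The 95% interval of -2.90 to -0.19 lies below 0, while the p adjusted over all loci did not pass the test.

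The promoters of the 3 group III genes that rose are shown because these genes moved in one direction. The windows, made and marked as above, lie at chr3:20910624-20910923 for WRKY70, chr2:19044956-19045255 for WRKY46 and chr4:12393983-12394282 for WRKY53, all on the minus strand.
WRKY70: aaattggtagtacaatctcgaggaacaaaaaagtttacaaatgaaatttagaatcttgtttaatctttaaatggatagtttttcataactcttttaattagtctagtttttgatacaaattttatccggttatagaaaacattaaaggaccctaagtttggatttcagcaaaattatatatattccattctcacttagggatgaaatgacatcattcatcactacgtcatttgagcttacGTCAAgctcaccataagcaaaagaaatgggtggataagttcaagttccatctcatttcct
WRKY46: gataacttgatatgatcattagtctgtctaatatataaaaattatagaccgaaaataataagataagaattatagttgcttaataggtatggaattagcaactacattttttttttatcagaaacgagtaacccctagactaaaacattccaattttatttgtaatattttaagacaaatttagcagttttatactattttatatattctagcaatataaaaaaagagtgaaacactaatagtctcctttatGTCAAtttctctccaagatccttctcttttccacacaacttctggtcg
WRKY53: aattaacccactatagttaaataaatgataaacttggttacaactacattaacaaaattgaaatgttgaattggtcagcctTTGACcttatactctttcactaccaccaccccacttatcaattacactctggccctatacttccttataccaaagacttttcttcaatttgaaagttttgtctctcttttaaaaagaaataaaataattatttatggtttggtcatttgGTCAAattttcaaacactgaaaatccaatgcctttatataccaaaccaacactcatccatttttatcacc
WRKY70 held 1 core 60 bases before the start and WRKY46 held 1 core 48 bases before it, both on the opposite strand. WRKY53 held 2 cores, 219 and 70 bases before the start. Over the 10 members, 7 windows held a core, against 50.4% of all 27443 promoters, and a core in this window does not separate the genes that rose from the others. The longer form TTGACC or TTGACT was held by 4 of 10 members (WRKY11, WRKY15, WRKY33 and WRKY53), against 32.3% of all promoters. CACGTG, the G-box, was held by WRKY15 alone among the 10, against 7.09% of all promoters, and CATGTG by 0 of 10, against 13.1%. These matches describe letters in a window of 300 bases and are not shown to be bound.

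Brassinolide raised the same 3 group III genes and the same 2 group IIa genes in the RiD line. WRKY60 rose 7.33-fold, WRKY46 7.16-fold, WRKY70 4.72-fold, WRKY53 4.08-fold and WRKY18 1.83-fold over RiD mock. In all, 5 of 10 members were called higher and 0 lower, where 6.76% of all tested loci were called, 4.63% higher and 2.13% lower. With the library number as a block 7 members were called higher and 0 lower, where 27.6% of all loci were called, 14.8% higher and 12.8% lower. The median log2 change was 0.87 over the members and -0.02 over all tested loci. Both agents were set against the same RiD mock libraries, so that a chance value of these libraries enters both comparisons.

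The log2 changes under brassinolide were 2.87 for WRKY60 (SE 0.21, adjusted p = 0.000397), 2.84 for WRKY46 (SE 0.33, adjusted p = 0.00242), 2.24 for WRKY70 (SE 0.18, adjusted p = 0.000582) and 2.03 for WRKY53 (SE 0.31, adjusted p = 0.00657). The change of WRKY18 was near the threshold, at 0.87 (SE 0.21, adjusted p = 0.0458). It was not called in 8 of the 10 fits that left out 1 library, where only the fits without Col-0 mock library 1 or 2 kept it, and the highest adjusted p was 0.288, without RiD brassinolide library 1. It was also not called without trend and robust moderation (0.0673), with the most abundant transcript per locus (0.0559) or with only the compared groups fitted (0.136), and WRKY53 had 0.0677 in the last of these. Without RiD brassinolide library 1 the adjusted p of WRKY53 was 0.0636, and 3 members were called. WRKY11, at 0.46 (adjusted p = 0.306), and WRKY33, at 0.86 (adjusted p = 0.337), were called with the library number as a block, with adjusted p of 0.0038 and 0.000231. WRKY15 differed by 0.20 (95% interval -0.22 to 0.62), WRKY40 by -0.44 (-0.98 to 0.10) and WRKY54 by -0.85 (-2.21 to 0.50), none of which passed the test.

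In RiD, 100 nM rapamycin gave higher levels than 100 nM brassinolide for 2 of 10 members, WRKY60 and WRKY18, where 2.56% of all tested loci were called, 1.03% higher and 1.53% lower. Over all loci 240 were called higher and 356 lower as deposited, and 162 higher and 446 lower with libraries scaled to equal totals. WRKY60 was 2.23-fold higher (log2 1.16, SE 0.21, adjusted p = 0.0321) and WRKY18 2.09-fold higher (log2 1.06, SE 0.21, adjusted p = 0.0402). Neither call held without either library of RiD rapamycin, RiD brassinolide, RiD mock or Col-0 rapamycin, where the adjusted p was 0.0501 to 0.212 for WRKY60 and 0.0553 to 0.244 for WRKY18. Nor did they hold with only the compared groups fitted (0.0981 for WRKY60 and 0.113 for WRKY18), and WRKY18 was not called after quantile normalization (0.0507), without trend and robust moderation (0.0569) or with the most abundant transcript per locus (0.0507). With the library number as a block 6 members were called higher, namely these and WRKY11, WRKY15, WRKY53 and WRKY70, where 20% of all loci were called, 10.9% higher and 9.09% lower. Without the block WRKY53 differed by 1.36 (95% interval 0.66 to 2.06, adjusted p = 0.0631) and WRKY70 by 0.71 (0.29 to 1.13, adjusted p = 0.0963). WRKY46 differed by 0.66 (95% interval -0.10 to 1.43, adjusted p = 0.416) and WRKY33 by 0.20 (-0.82 to 1.21, adjusted p = 0.934), which leaves room for changes in either direction.

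Rapamycin in Col-0 changed none of the 10 members and 0% of all tested loci at an adjusted p under 0.05 by limma, while 557 loci had an unadjusted p under 0.05. With the library number as a block 0 of 10 members and 0.185% of all loci were called, 0.0215% higher and 0.163% lower. WRKY46 had the lowest unadjusted p of the 10, 0.029, with a log2 difference of -0.88 (95% interval -1.65 to -0.12). The intervals of WRKY60 (-0.63 to 0.35), WRKY70 (-0.53 to 0.30) and WRKY53 (-0.99 to 0.41) in Col-0 all ended below the lower bounds of their changes in RiD.

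**Figure D2:**
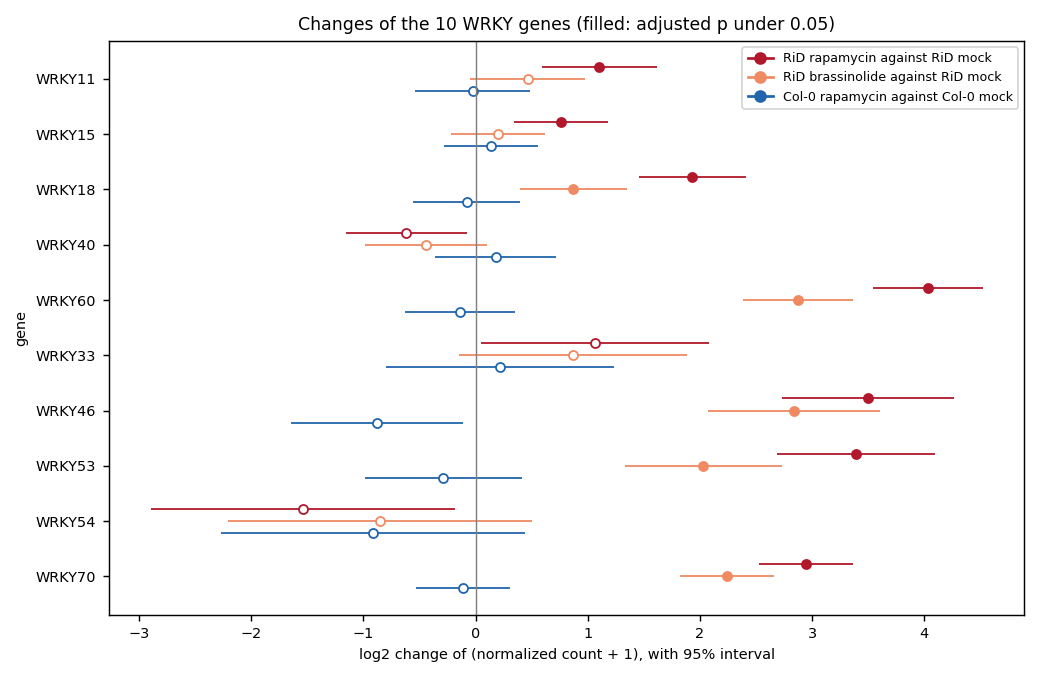
Log2 change of each WRKY gene (horizontal axis, on the scale of normalized count + 1) with its 95% interval, for rapamycin in RiD, brassinolide in RiD and rapamycin in Col-0, with filled points for an adjusted p under 0.05. WRKY60, WRKY46, WRKY53, WRKY70 and WRKY18 carry filled points for both agents in RiD, and the 10 points for Col-0 are all open.

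The difference between the rapamycin effects in RiD and in Col-0 was itself tested. It was called for 5 of 10 members, all higher in RiD, where 10.1% of all tested loci were called, 6.49% higher and 3.56% lower. Over all loci 1512 were called higher and 829 lower as deposited, and 1315 higher and 1119 lower with libraries scaled to equal totals. The difference was 4.38 for WRKY46 (log2, SE 0.47, adjusted p = 0.00137), 4.17 for WRKY60 (SE 0.30, adjusted p = 0.000347) and 3.68 for WRKY53 (SE 0.43, adjusted p = 0.00195). The WRKY46 value includes the log2 difference of -0.88 in Col-0, which was not called and rests on a few reads per library. Over the 20 alternatives it ran from 3.53 to 4.61. The difference was 3.06 for WRKY70 (SE 0.26, adjusted p = 0.000492) and 2.01 for WRKY18 (SE 0.29, adjusted p = 0.00498). For WRKY11 it was 1.13 (adjusted p = 0.0613). The block fit called WRKY11, WRKY15 and WRKY33 higher in RiD as well, with adjusted p of 3.32e-05, 0.00119 and 0.00319. It called WRKY40 in the other direction, at a difference of -0.80 (adjusted p = 0.0294). In that fit 33.9% of all loci were called, 18.2% higher and 15.7% lower. WRKY54 did not pass in either fit.

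The lines were also compared without either agent. Between RiD mock and Col-0 mock 0 of 10 members and 0% of all tested loci were called by limma, while 695 loci had an unadjusted p under 0.05. BRI1 and BAK1 were thus not called either, although they were 2.32-fold and 2.51-fold higher in RiD mock. The block fit called both (adjusted p = 6.2e-05 and 2.32e-06). With 2 libraries a group, a lack of calls does not show that the lines were alike. WRKY70 was 1.69-fold higher in RiD mock, with 152 and 119 normalized counts against 82.95 and 75.5 in Col-0 mock. Its log2 difference of 0.76 (SE 0.18) had an unadjusted p of 0.00302 and an adjusted p of 1, and the block fit called it (adjusted p = 0.0323), where 0.356% of all loci were called, 0.228% higher and 0.129% lower. WRKY60 was lower in RiD mock, with 36.1 and 42.4 normalized counts against 72.8 and 56.45 in Col-0 mock, at a log2 difference of -0.70 (SE 0.21), an unadjusted p of 0.0109 and an adjusted p of 1.

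Levels were also set side by side within a group, per kb of exon, since longer transcripts give more reads. In RiD rapamycin WRKY15 led with 2028 ± 284 normalized counts per kb, followed by WRKY11 with 896 ± 61.5, WRKY70 with 712 ± 12.3, WRKY18 with 418 ± 5.05, WRKY60 with 414 ± 9.69, WRKY33 with 299.9 ± 150.4 and WRKY40 with 109.9 ± 9.35 (SD, n = 2 each). WRKY53 with 77.0 ± 6.75, WRKY46 with 65.4 ± 15.0 and WRKY54 with 1.55 ± 0.82 came last. The values of WRKY18 and WRKY60 overlapped, as did those of WRKY53 and WRKY46, and the other neighbours were apart. In RiD mock the order began with WRKY15 at 1197 ± 182, WRKY11 at 418 ± 45.7, WRKY40 at 174 ± 60.7 and WRKY33 at 138 ± 44.6 per kb, where the values of WRKY33 overlapped those of WRKY40 above it and WRKY18 below it. WRKY70 was sixth there, at 92.3 ± 15.9 per kb, and its values overlapped those of WRKY18, at 109.8 ± 15.8. The lowest ranks in RiD mock were WRKY60 at 24.8 ± 2.80 per kb and then WRKY53, WRKY54 and WRKY46 at 6.90 ± 2.29, 5.67 ± 0.90 and 5.04 ± 0.39, which overlapped. In RiD brassinolide WRKY70 again followed WRKY15 and WRKY11, at 437 ± 54.0 per kb, and WRKY60, at 186 ± 27.4, overlapped WRKY18, at 201 ± 30.8. Both Col-0 groups kept WRKY15, WRKY11, WRKY40, WRKY33, WRKY18, WRKY70, WRKY60 and WRKY53 as their first 8 in that order, ending with WRKY46 and WRKY54, where WRKY54 was at 1.99 ± 1.49 per kb in Col-0 rapamycin and 3.98 ± 0.56 in Col-0 mock.

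Of the WRKY11 transcripts, AT4G31550.1 made up 30.95 and 22.99% of the locus in RiD rapamycin, 21.9 and 19.1% in RiD brassinolide, 21.0 and 14.4% in RiD mock, 14.0 and 18.9% in Col-0 rapamycin, and 19.99 and 14.9% in Col-0 mock. The RiD rapamycin libraries held the highest shares, although the difference between the libraries of a group was as large as most differences between groups. The second transcript of WRKY18 was listed at 0 in all 10 libraries. That of WRKY15 was above 0 in 2 libraries, at 0.62% of the locus in RiD rapamycin library 2 and 0.28% in RiD mock library 1.

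With rapamycin in RiD 12.3% of all tested loci were called higher and 9.72% lower, and 24.1% each way in the block fit. With brassinolide the shares were 4.63% higher and 2.13% lower, and 14.8% and 12.8% in the block fit. Among the other WRKY genes, 19 of 56 tested were called higher and 0 lower in RiD rapamycin against RiD mock, with a median log2 change of 0.62. The count was 12 without RiD mock library 1, and with the library number as a block 33 were called higher and 6 lower. WRKY48, a repressor of basal defence, had 449 and 732 normalized counts in RiD rapamycin, 314 and 362 in RiD brassinolide, and 24.5 and 47.2 in RiD mock (log2 change under rapamycin 4.03, adjusted p = 0.000638). WRKY63, listed as ABO3 and known from abscisic acid and drought responses, averaged 122 ± 11.3 in RiD rapamycin, 59.2 ± 3.59 in RiD brassinolide and 8.75 ± 2.21 in RiD mock (adjusted p = 0.000371 under rapamycin). WRKY71, a promoter of shoot branching and flowering, was at 0 in both RiD mock libraries and averaged 56.3 ± 14.6 in RiD rapamycin and 16.6 ± 10.4 in RiD brassinolide. Set against 3 reads per library, averaged over RiD mock, the mean of WRKY71 was at least 17.9-fold higher with rapamycin and 5.29-fold higher with brassinolide. Single libraries were uneven, at 45.95 and 66.6 in RiD rapamycin and 9.23 and 23.95 in RiD brassinolide. WRKY38, a group III repressor of basal defence, averaged 38.7 ± 4.08 in RiD rapamycin, 9.99 ± 1.12 in RiD brassinolide and 0.64 ± 0.91 in RiD mock (adjusted p = 0.000835 under rapamycin). WRKY24 averaged 10.03 ± 5.52 in RiD rapamycin and was at 0 in both RiD mock libraries, at least 3.2-fold higher by the same floor. Under brassinolide 9 of 56 were called higher and 0 lower, with 25 and 3 in the block fit, and the count was 4 without RiD brassinolide library 1 or 2, 5 without RiD mock library 1 and 6 without RiD mock library 2.

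**Figure D3:**
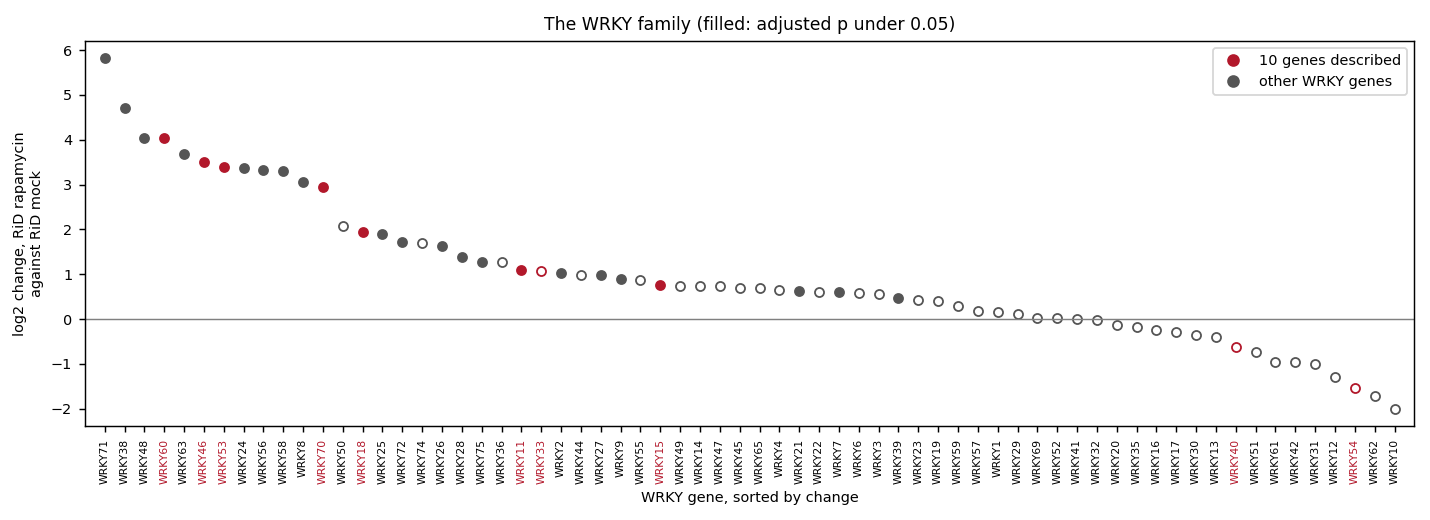
Log2 change in RiD rapamycin against RiD mock (vertical axis) of the 66 tested WRKY genes, sorted, with the 10 genes described here in red and filled points for an adjusted p under 0.05. WRKY71, WRKY38, WRKY48, WRKY60 and WRKY63 had the highest values, and no WRKY gene with a value below 0 has a filled point.

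Genes that act around these factors were counted by role, and the counts stand beside the 22% of all tested loci called with rapamycin in RiD (48.2% in the block fit) and the 6.76% called with brassinolide (27.6%). Of 10 mitogen-activated protein kinase cascade genes upstream of WRKY factors, 1 was called higher with rapamycin in RiD, and 4 in the block fit, both shares below those of all loci. That gene was MPK3, the kinase that activates WRKY33, with 1887 and 1836 normalized counts in RiD rapamycin, 1505 and 1464 in RiD brassinolide, and 864 and 900.0 in RiD mock. The 3 groups did not overlap, and MPK3 rose 2.11-fold with rapamycin (adjusted p = 0.000739) and 1.68-fold with brassinolide (adjusted p = 0.011). The call under brassinolide, the only 1 in that list, was lost whenever 1 library of RiD brassinolide or RiD mock was left out. Its close partner MPK6 averaged 2460 ± 235 in RiD rapamycin, 2134 ± 95.9 in RiD brassinolide and 2369 ± 248 in RiD mock, which did not pass the test (adjusted p = 0.842 under rapamycin), and it is named here after its values were seen. Of 4 VQ-motif proteins, which bind WRKY factors, 2 were called higher with rapamycin. These were SIB2, with 351.7 ± 29.5 in RiD rapamycin and 170.0 ± 34.9 in RiD mock (adjusted p = 0.00845), and JAV1, with 139 ± 1.47 in RiD rapamycin and 81.7 ± 10.4 in RiD mock (adjusted p = 0.0402). All 4 were called in the block fit, 3 higher and 1 lower. SIB2 was not called without RiD rapamycin library 1 (0.0529) or RiD mock library 2 (0.0533), and JAV1 was called without Col-0 mock library 1 or 2 but not when any other library was left out (0.0519 to 0.174).

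Targets of WRKY33 did not move in one direction. Of 5 tested, 3 were called higher and 1 lower with each agent in RiD, and under brassinolide 1 in all was called without RiD brassinolide library 1 and 2 without RiD brassinolide library 2. PAD3, the last enzyme of camalexin synthesis, had 5.57 and 6.12 normalized counts in RiD rapamycin, 7.91 and 13.9 in RiD brassinolide, and 64.5 and 69.6 in RiD mock. It fell with rapamycin by 3.31 on the log2 scale (adjusted p = 0.00032) and with brassinolide by 2.56 (adjusted p = 0.00348). CYP71A12, an enzyme of an earlier step, had 52.8 and 58.9 in RiD rapamycin, 43.5 and 25.5 in RiD brassinolide, and 1.29 and 6.40 in RiD mock (adjusted p = 0.00756 with rapamycin and 0.0445 with brassinolide). CYP71A13, its near-identical neighbour, was listed at 0 in all 10 libraries, so that the split of reads between the pair is uncertain. ACS6, an enzyme of ethylene synthesis, averaged 169 ± 5.15 in RiD rapamycin, 179 ± 2 in RiD brassinolide and 65.3 ± 15.4 in RiD mock (adjusted p = 0.00247 with rapamycin and 0.00544 with brassinolide). NCED3, an enzyme of abscisic acid synthesis that WRKY33 represses, averaged 228 ± 8.45 in RiD rapamycin, 305.9 ± 0.22 in RiD brassinolide and 101 ± 16.0 in RiD mock (adjusted p = 0.0184 with rapamycin and 0.0125 with brassinolide). With rapamycin NCED3 had an adjusted p of 0.0786 without RiD rapamycin library 1, 0.0733 without RiD rapamycin library 2 and 0.0931 without RiD mock library 2.

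Of 14 genes of salicylate synthesis and response, 6 were called higher and 1 lower with rapamycin in RiD. The block fit also gave 6 higher and 1 lower, near its share of 48.2% of all loci. The median log2 change of the 14 genes was 0.08, against -0.03 over all tested loci. CBP60G, a factor that switches on salicylate synthesis, had 611 and 824 normalized counts in RiD rapamycin, 457 and 461 in RiD brassinolide, and 82.6 and 84.1 in RiD mock (adjusted p = 3.93e-05 under rapamycin). PBS3, an enzyme of salicylate synthesis, averaged 38.6 ± 0.51 in RiD rapamycin, 15.2 ± 8.35 in RiD brassinolide and 1.60 ± 2.26 in RiD mock (adjusted p = 0.00426 under rapamycin). NPR3, a salicylate receptor, averaged 1339 ± 244 in RiD rapamycin, 962 ± 120 in RiD brassinolide and 587 ± 101 in RiD mock (adjusted p = 0.0189 under rapamycin). PR1, the usual late marker of salicylate responses, was the gene that fell, with 15.3 and 3.82 in RiD rapamycin, 6.58 and 13.1 in RiD brassinolide, and 34.8 and 36.7 in RiD mock. Its fall by 2.05 on the log2 scale (adjusted p = 0.0406) was called without RiD rapamycin library 1 or either RiD brassinolide library and not when any other library was left out (0.0533 to 0.193), and NPR3 had an adjusted p of 0.0993 without RiD rapamycin library 1 and 0.0943 without RiD mock library 2. When any 1 library of RiD rapamycin or RiD mock was left out, 4 of the 14 were called in all with rapamycin. Under brassinolide 1 of the 14 was called higher and 0 lower, and in the block fit 5 and 1.

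Of 8 genes of pattern-triggered immunity, 4 were called higher and 0 lower with rapamycin in RiD (6 and 1 in the block fit), and 3 with brassinolide (6 in the block fit). FRK1, an early marker kinase and a WRKY target, had 58.5 and 54.4 normalized counts in RiD rapamycin, 27.7 and 14.7 in RiD brassinolide, and 2.58 and 0.80 in RiD mock (adjusted p = 0.00151 under rapamycin). CYP81F2, an indole glucosinolate enzyme, averaged 249 ± 7.52 in RiD rapamycin, 111 ± 31.3 in RiD brassinolide and 41.8 ± 9.88 in RiD mock (adjusted p = 0.000417). NHL10, listed as YLS9, averaged 52.0 ± 3.21 in RiD rapamycin, 37.9 ± 5.24 in RiD brassinolide and 13.9 ± 0.43 in RiD mock (adjusted p = 0.00578). The count under brassinolide was 0 without RiD brassinolide library 1 or RiD mock library 1, and 1 without RiD brassinolide library 2 or RiD mock library 2.

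**Figure D4:**
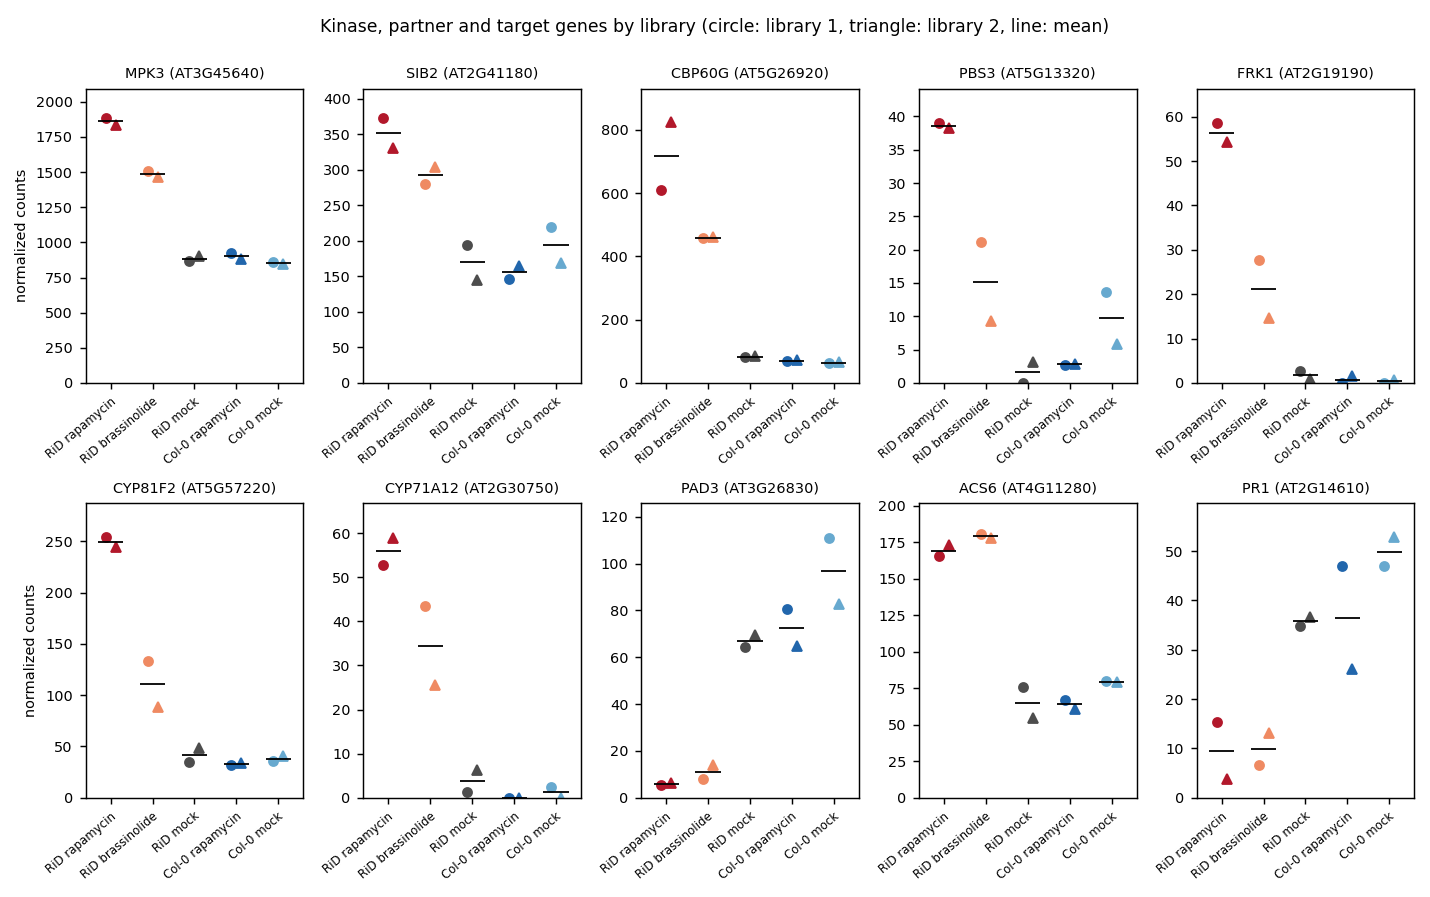
Normalized counts of 10 genes that act around the WRKY factors (vertical axis, linear and starting at 0, scaled per gene) in the 5 groups, with a circle for library 1, a triangle for library 2 and a line at the mean of both. MPK3, SIB2, CBP60G, FRK1, CYP81F2, CYP71A12 and ACS6 were higher in both treated RiD groups than in RiD mock, and PAD3 and PR1 were lower.

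Senescence genes, among the targets and regulators of WRKY53, gave 1 higher and 2 lower of 6 tested with rapamycin in RiD. SEN1 averaged 61010 ± 1432 normalized counts in RiD rapamycin, 49327 ± 1568 in RiD brassinolide and 31794 ± 1531 in RiD mock (adjusted p = 0.00188 under rapamycin, and 0.085 after quantile normalization). SAG21 averaged 10698 ± 4017 in RiD rapamycin, 15302 ± 3115 in RiD brassinolide and 36936 ± 10840 in RiD mock, a fall by 1.81 on the log2 scale with rapamycin (adjusted p = 0.00786), with 0.0522 without RiD rapamycin library 2 and 0.0523 without RiD mock library 1. WHY1, which represses WRKY53, averaged 119 ± 2.84 in RiD rapamycin and 213 ± 18.0 in RiD mock (adjusted p = 0.0205), and was not called when any 1 library of RiD rapamycin or RiD mock was left out (0.0603 to 0.101). SAG12, the defining marker of leaf senescence, was at 0 in all 10 libraries, and SAG13 was above 0 only in RiD brassinolide, at 1.32 and 1.55.

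Drought genes, which WRKY46, WRKY54 and WRKY70 repress together with BES1, gave 2 higher and 0 lower of 7 with rapamycin in RiD, near the share of all loci, and 3 and 2 in the block fit. With brassinolide 1 of 7 was called higher and 0 lower, 3 and 0 in the block fit. That gene was RD29A, named here after its values were seen, with 816 and 933 normalized counts in RiD rapamycin, 2429 and 1579 in RiD brassinolide, and 726.5 and 492 in RiD mock (adjusted p = 0.0136 with brassinolide and 0.244 with rapamycin). The count under brassinolide was 0 without RiD brassinolide library 1 or RiD mock library 2, and 2 without Col-0 rapamycin library 1 or 2. RD20 had 469 and 465.5 normalized counts in RiD rapamycin, 188 and 201 in RiD brassinolide, and 223 and 234 in RiD mock, so that it rose with rapamycin (adjusted p = 0.00691), and its difference under brassinolide did not pass the test (adjusted p = 0.602). The direct difference between the agents was called for RD20 (log2 1.26, adjusted p = 0.016). ERD1 averaged 9465 ± 1675 in RiD rapamycin and 5451 ± 1067 in RiD mock (adjusted p = 0.0252), and had an adjusted p of 0.148 without RiD rapamycin library 2, 0.144 without RiD mock library 1 and 0.0626 with libraries scaled to equal totals. Of 6 brassinosteroid components that act with WRKY factors, 0 were called in either direction with either agent. The 6 were BZR1, BES1, BIN2, HBI1, and BRI1 and BAK1, for which the RiD line is named. The block fit called 4 higher and 1 lower with rapamycin and 1 lower with brassinolide. BAK1 was among those called higher with rapamycin in the block fit (adjusted p = 0.0337).

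Some markers of cell types also differed in the treated RiD seedlings, where 22% of all tested loci were called with rapamycin and 6.76% with brassinolide. With brassinolide 4 of 5 root hair and root epidermis markers were called lower. It gave 1 of 4 stomatal and 2 of 5 endodermis and stele markers higher. Of the cotyledon and hypocotyl markers 0 of 4 were called with it, and of the shoot meristem markers 0 of 5. The calls below are for rapamycin in RiD. Of 5 root hair and root epidermis markers 4 were called lower with rapamycin, with sums of 11.1 and 14.5 normalized counts in RiD rapamycin, 15.8 and 13.9 in RiD brassinolide, 126 and 109 in RiD mock, 159.9 and 149 in Col-0 rapamycin, and 96.65 and 147 in Col-0 mock. Of 4 dark-grown cotyledon and hypocotyl markers 3 were called lower, with sums of 58408 and 42958 in RiD rapamycin, 84337 and 83667 in RiD brassinolide, 125239 and 101753 in RiD mock, 118495 and 103364 in Col-0 rapamycin, and 126166 and 109503 in Col-0 mock. Of 4 stomatal markers 1 was called higher, near the share of all loci, with sums of 485.5 and 552 in RiD rapamycin, 493 and 595 in RiD brassinolide, 229.6 and 306 in RiD mock, 164 and 180.0 in Col-0 rapamycin, and 208 and 239 in Col-0 mock. That marker was TMM, at 379 ± 11.2 in RiD rapamycin and 113 ± 7.10 in RiD mock. SPCH was higher (adjusted p = 0.086) and FAMA lower, at 84.3 ± 36.6 against 132 ± 42.8 (adjusted p = 0.318), and MUTE did not pass either (adjusted p = 0.812). The block fit called 2 higher and 1 lower. Of 5 endodermis and stele markers 2, CASP1 and CASP2, were called higher, with sums of 9322 and 10433 in RiD rapamycin, 7560 and 8193 in RiD brassinolide, 6538 and 7948 in RiD mock, 6419 and 6997 in Col-0 rapamycin, and 6139 and 8031 in Col-0 mock. PHO1 was lower, at 1578 ± 503 in RiD rapamycin and 3244 ± 1292 in RiD mock (adjusted p = 0.0873). SCR and SHR did not pass the test (adjusted p = 0.58 and 0.63), and the block fit called 2 higher and 1 lower. Shoot meristem markers summed to 4220 and 4730 in RiD rapamycin and 4024 and 4720 in RiD mock, with 1 of 5 called higher and 1 lower. The part of these shifts in the WRKY values was not tested.

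For each gene the loci with the most similar profile were taken as those with the smallest root mean square difference of log2 values, each centred on its own mean, over the 10 libraries, among 18681 loci with a mean of at least 20 normalized counts (18682 for WRKY54). The nearest loci were AT5G17760 for WRKY11 (0.08) and AT5G23870 for WRKY15 (0.07), then AT3G50350 for WRKY18 (0.13), emb1974 for WRKY40 (0.13) and AT5G44290 for WRKY33 (0.11). For the genes that rose most they were AT4G04990 for WRKY60 (0.24), GPAT3 for WRKY46 (0.25), AGP22 for WRKY53 (0.12) and AT3G55840 for WRKY70 (0.18), while AT1G62910 was nearest to the low WRKY54 (0.39). The second nearest were AT5G03890 for WRKY11, AT3G47550 for WRKY15, AT1G55450 for WRKY18, SLD2 for WRKY40, AT2G36220 for WRKY60, AT2G38410 for WRKY33, IAA6 for WRKY46, AT1G30690 for WRKY53, AT5G09580 for WRKY54 and CYP706A1 for WRKY70. Among the members themselves, WRKY11 and WRKY15 were each other's nearest (0.31), as were WRKY60 and WRKY53 (0.35) and WRKY46 and WRKY70 (0.42). WRKY40 was nearest to WRKY15, at 0.61. These distances describe 10 libraries that share treatments and depth classes, and carry no test.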

How the data were processed

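Poly(A) RNA of whole seedlings had been sequenced with a stranded kit, per the labels. The deposited signal values are normalized counts per transcript, made by the authors with Salmon and DESeq2 per the submitters' processing notes; versions, build, annotation and use of strand are not in the sources used here. Groups and library numbers came from the labels, and 0 columns of the table were left without a sample. Total values were 23244655 to 26987555 per library.

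Transcripts were summed per locus (40812 transcripts, 32753 loci). As the table holds normalized values, log2(value + 1) was tested by limma 3.58.1 (R 4.3.3), robust and with an intensity trend, for 23285 loci that reached 1 normalized count in 2 or more libraries, with 5 groups over 10 libraries, 5 residual degrees of freedom (4 with a block). Fold changes are on that scale, which understates changes of low loci. P-values were adjusted by Benjamini-Hochberg over all tested loci, at a threshold of 0.05. Among transcripts with low values above 0, 78.95 to 99.64% per library were whole multiples of 1 read (tolerance 0.1 reads). The share in Col-0 mock library 1 was too low for a count test, so none was run. The fits were tested on simulated data.

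The library numbers were used as a block in a second fit, because deviations from the group means of same-numbered libraries had correlations of 0.32 to 0.511 over the 10 pairs of groups; what a number marks is not in the labels.

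Gene positions, exon lengths and promoters came from RefSeq TAIR10.1, in which all 10 members matched by locus; the authors' build was not compared. Members, lists, markers and tests were chosen with earlier results of these data known. All 10 members are named; from each other list the 3 largest called rises and falls (5 for WRKY genes) are named. For each member the 2 nearest loci are named. In all, 20 alternatives were run, among them 10 fits that each left out 1 library.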

Additional observations from a re-analysis of the deposited data

Results flagged for a closer look

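The rapamycin effect differed between the RiD and Col-0 lines, by the test of the difference itself, for 5 of the 10 WRKY genes. The difference of the log2 changes, RiD minus Col-0, was 2.01 for WRKY18, 4.17 for WRKY60, 4.38 for WRKY46, 3.68 for WRKY53 and 3.06 for WRKY70. Each was called under all 20 alternatives, with the highest adjusted p at 0.0253 for WRKY18, 0.00282 for WRKY60, 0.00878 for WRKY46, 0.0115 for WRKY53 and 0.00401 for WRKY70. Groups of 2 libraries are too small to look for single libraries that stand apart.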

How the results depend on the processing

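WRKY18, WRKY46, WRKY53, WRKY60 and WRKY70 were called higher in RiD rapamycin against RiD mock under all 20 alternatives, and WRKY60, WRKY46 and WRKY70 also in RiD brassinolide against RiD mock. No value of a member changed sign where it was called. The same held in RiD rapamycin against RiD mock for the other genes named for the largest called rises and falls. The remaining listed genes were not followed singly over the alternatives. WRKY54 had no value under the filter of at least 10 normalized counts. Scaling to equal totals gave a median log2 change of all loci of -0.16 in RiD rapamycin against RiD mock, against -0.03 as deposited.

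With the library number as a replicate block, counts of called loci were 11215 (5120 without the block) for RiD rapamycin against RiD mock, 6424 (1575) for RiD brassinolide against RiD mock, 4650 (596) for RiD rapamycin against RiD brassinolide, 43 (0) for Col-0 rapamycin against Col-0 mock, 83 (0) for RiD mock against Col-0 mock and 7893 (2341) for the difference of rapamycin effects. Members called with the block were 6 (2 without) between the agents, 1 (0) between the mock groups and 9 (5) for the difference of effects. The block changed no call of a member other than those given with the results.

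With only the compared groups fitted, which leaves fewer residual degrees of freedom, 2692, 566 and 116 loci were called in the first 3 comparisons, and 3 members under brassinolide and 0 between the agents. With the most abundant transcript per locus, 1 member was called between the agents and 3 loci in Col-0. Without trend and robust moderation 1 locus was called between the mock groups. The cause was not tested.

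Leaving out 1 library at a time called 2929 to 4672 loci for RiD rapamycin against RiD mock, 478 to 1320 and 3 to 5 members for RiD brassinolide against RiD mock, 113 to 431 and 0 to 2 members between the agents, 0 to 1 in Col-0, 0 to 2 between the mock groups and 1220 to 1890 for the difference of effects. The lowest counts came without RiD rapamycin library 2 (first and last comparison) and without RiD brassinolide library 1 or 2 (second and between the agents). The libraries numbered 1 are shallower, and at 2 libraries a group small changes such as that of WRKY15 rest on single libraries.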
